A study of Mus musculus with 2 samples.

Results

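The G2-M mitosis genes described here are 45 genes that act between the end of DNA replication and the separation of the daughter cells. They were taken by symbol, and all 45 were found among the 18159 gene symbols of the table. Expression was measured by mRNA sequencing of jejunal tunica muscularis, the muscle wall peeled from the mucosa of the middle small intestine, in C57BL/6 mice at P15 (postnatal day 15). *Dnmt1*-WT mice carried smMHC Cre-eGFP, a *Cre* and *eGFP* transgene driven by the *Myh11* promoter and active in smooth muscle cells (SMCs). *Dnmt1*-KO mice carried the same transgene, active from the embryo on, and lost floxed *Dnmt1* in the cells that express it, so both genotypes expressed *Cre* and eGFP. The strain label of both samples reads Dnmt1lox/lox and the description of both names the deleted allele, while the title and genotype labels separate *Dnmt1* WT from *Dnmt1* KO. These last labels were used. Each genotype had 1 library from mice of both sexes, whose RNA was combined in a way not given in the sources used here, so no difference below has a replicate check, an error or a p-value. *Dnmt1*, which encodes the maintenance methyltransferase, had 11.58 FPKM in muscle of *Dnmt1*-WT mice and 7.58 FPKM in that of *Dnmt1*-KO mice, a ratio of 0.655. This value covers all cells of the tissue and the whole gene, of which the deletion removes a part. It thus does not measure the loss in SMCs, and in sorted SMCs of this age the paper reports nearly full loss of *Dnmt1* expression. FPKM counts sequenced fragments per unit of transcript length and of library size, and the reads behind a value are unknown.

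Most G2-M genes are transcribed little in resting cells and strongly in dividing ones, with a peak shortly before mitosis. In G0 and early G1 the DREAM complex, with its MuvB core, holds them down by binding a short promoter element named the cell cycle genes homology region (CHR). Later MuvB joins B-MYB and FOXM1 at the same genes, with NF-Y at nearby CCAAT boxes, and transcription is turned on. CDK1 with cyclins A and B then drives entry into mitosis, and the anaphase-promoting complex (APC/C) ends it by degrading securin and the cyclins. In a muscle wall shortly after birth such transcripts can come from SMCs or from any other dividing cell in the tissue.

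The promoters of the members with the highest and the lowest ratios are shown first, since these letters are what most members share. RefSeq promoters (GRCm38.p6, 250 bases before and 50 after the annotated start) were at hand for 37 of the 45 members. The 5 shown first belong to the matched members with the highest *Dnmt1*-KO over *Dnmt1*-WT ratio, and each is written 5′ to 3′ on the strand of the gene. Capitals mark the letters TTTGAA or TTCGAA (forms of the CHR) and CCAAT, in either reading direction, so that TTCAAA and ATTGG are capitals too. TTCGAA reads the same on both strands, and none of the 3 motifs holds another.
Cdca3, chr6:124829926-124830225, plus strand: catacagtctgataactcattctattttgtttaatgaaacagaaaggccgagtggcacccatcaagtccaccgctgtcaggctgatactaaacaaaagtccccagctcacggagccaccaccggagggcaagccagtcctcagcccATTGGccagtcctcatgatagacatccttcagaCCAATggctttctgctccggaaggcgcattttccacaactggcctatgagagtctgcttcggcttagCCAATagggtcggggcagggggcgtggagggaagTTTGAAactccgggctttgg
Birc5, chr11:117848987-117849286, plus strand: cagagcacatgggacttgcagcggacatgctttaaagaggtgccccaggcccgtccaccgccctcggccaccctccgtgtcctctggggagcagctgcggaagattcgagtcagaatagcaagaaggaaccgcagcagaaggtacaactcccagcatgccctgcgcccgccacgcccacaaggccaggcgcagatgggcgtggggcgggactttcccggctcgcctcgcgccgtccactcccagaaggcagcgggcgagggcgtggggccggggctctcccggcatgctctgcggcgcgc
Cdca8, chr4:124936868-124937167, minus strand: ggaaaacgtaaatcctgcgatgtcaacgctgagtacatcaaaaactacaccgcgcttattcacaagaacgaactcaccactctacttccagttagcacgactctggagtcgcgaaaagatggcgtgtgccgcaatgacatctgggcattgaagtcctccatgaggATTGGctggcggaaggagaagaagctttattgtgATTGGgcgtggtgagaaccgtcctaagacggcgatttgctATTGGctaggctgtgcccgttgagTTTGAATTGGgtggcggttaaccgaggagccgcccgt
Ube2c, chr2:164769679-164769978, plus strand: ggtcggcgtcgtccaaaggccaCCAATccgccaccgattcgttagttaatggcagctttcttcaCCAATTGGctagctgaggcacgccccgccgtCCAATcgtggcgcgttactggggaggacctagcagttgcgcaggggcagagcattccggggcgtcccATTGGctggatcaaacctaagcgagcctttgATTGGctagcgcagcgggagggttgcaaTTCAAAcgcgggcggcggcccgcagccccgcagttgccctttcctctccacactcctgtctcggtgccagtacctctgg
Plk1, chr7:122159185-122159484, plus strand: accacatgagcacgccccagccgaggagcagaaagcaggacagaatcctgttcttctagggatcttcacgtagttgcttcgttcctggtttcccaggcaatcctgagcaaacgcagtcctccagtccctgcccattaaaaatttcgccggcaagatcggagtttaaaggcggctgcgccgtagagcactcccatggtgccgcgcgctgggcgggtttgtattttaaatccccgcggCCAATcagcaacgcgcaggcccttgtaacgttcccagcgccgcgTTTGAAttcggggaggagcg

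*Cdca3*, *Cdca8*, *Ube2c* and *Plk1* each held the CHR letters once, between 29 bases before and 30 bases after the start site, counted to the first base of the match with the start site as 0. *Ube2c* held 6 CCAAT matches, *Cdca8* 4, *Cdca3* 3 and *Plk1* 1. No such letters were in the window given for *Birc5*. The *Pttg1* window below, like those of *Cdca3* and *Cdca8* above, lies inside the span of its gene in the GENCODE annotation. Bases upstream of that gene span were not searched. The next 3 promoters belong to the matched members with the lowest ratios, of which *Pttg1* and *Mad2l1* held none of the letters in the window given and *Smc2* held 2 CHR matches and 1 CCAAT.
Pttg1, chr11:43425932-43426231, minus strand: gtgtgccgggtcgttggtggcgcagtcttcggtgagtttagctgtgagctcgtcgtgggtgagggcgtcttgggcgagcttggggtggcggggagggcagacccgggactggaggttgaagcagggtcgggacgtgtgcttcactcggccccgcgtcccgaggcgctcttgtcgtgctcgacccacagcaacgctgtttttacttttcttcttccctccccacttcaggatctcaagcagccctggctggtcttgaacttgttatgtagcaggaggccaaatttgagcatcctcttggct
Mad2l1, chr6:66534971-66535270, plus strand: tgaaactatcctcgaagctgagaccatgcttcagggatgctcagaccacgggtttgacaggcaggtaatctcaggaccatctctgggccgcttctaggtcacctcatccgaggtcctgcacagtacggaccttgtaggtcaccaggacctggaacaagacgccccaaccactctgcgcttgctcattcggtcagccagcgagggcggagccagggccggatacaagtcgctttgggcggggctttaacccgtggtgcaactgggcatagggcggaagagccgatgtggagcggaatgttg
Smc2, chr4:52438971-52439270, plus strand: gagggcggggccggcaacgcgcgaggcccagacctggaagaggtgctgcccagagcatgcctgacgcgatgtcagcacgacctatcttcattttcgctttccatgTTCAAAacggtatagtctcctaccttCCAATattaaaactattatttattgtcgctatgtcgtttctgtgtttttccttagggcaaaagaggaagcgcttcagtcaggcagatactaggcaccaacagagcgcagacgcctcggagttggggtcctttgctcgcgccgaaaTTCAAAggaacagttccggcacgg

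Over the 37 matched members, 29 (78.4%) held TTTGAA or TTCGAA, against 21.7% of the 27025 genes with a promoter of this length in the RefSeq table and 16.9% of the 13303 of these that the expression table lists. TTTGAA alone was found in 28 members and TTCGAA in 3. CCAAT was present in 30 members (81.1%), against 41.1% of all genes in the RefSeq table, and 20 members held it at least 2 times (54.1% against 13.3%). Both elements together were found in 27 members (73.0%) and in 8.61% of all genes. With the whole match lying between 30 bases before and 30 bases after the start site, 19 members (51.4%) held the CHR letters, against 3.64% of all genes. *Cdca3* and *Plk1*, whose match begins at base 30, are not among these 19. In the genes of DNA replication named below, 6 of 31 matched genes (19.4%) held the CHR letters and 20 (64.5%) held CCAAT. In the list of other mitotic genes, 29 of 44 matched genes (65.9%) held the CHR letters, 21 (47.7%) held them inside the same window around the start site and 28 (63.6%) held CCAAT.

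**Figure D1:**
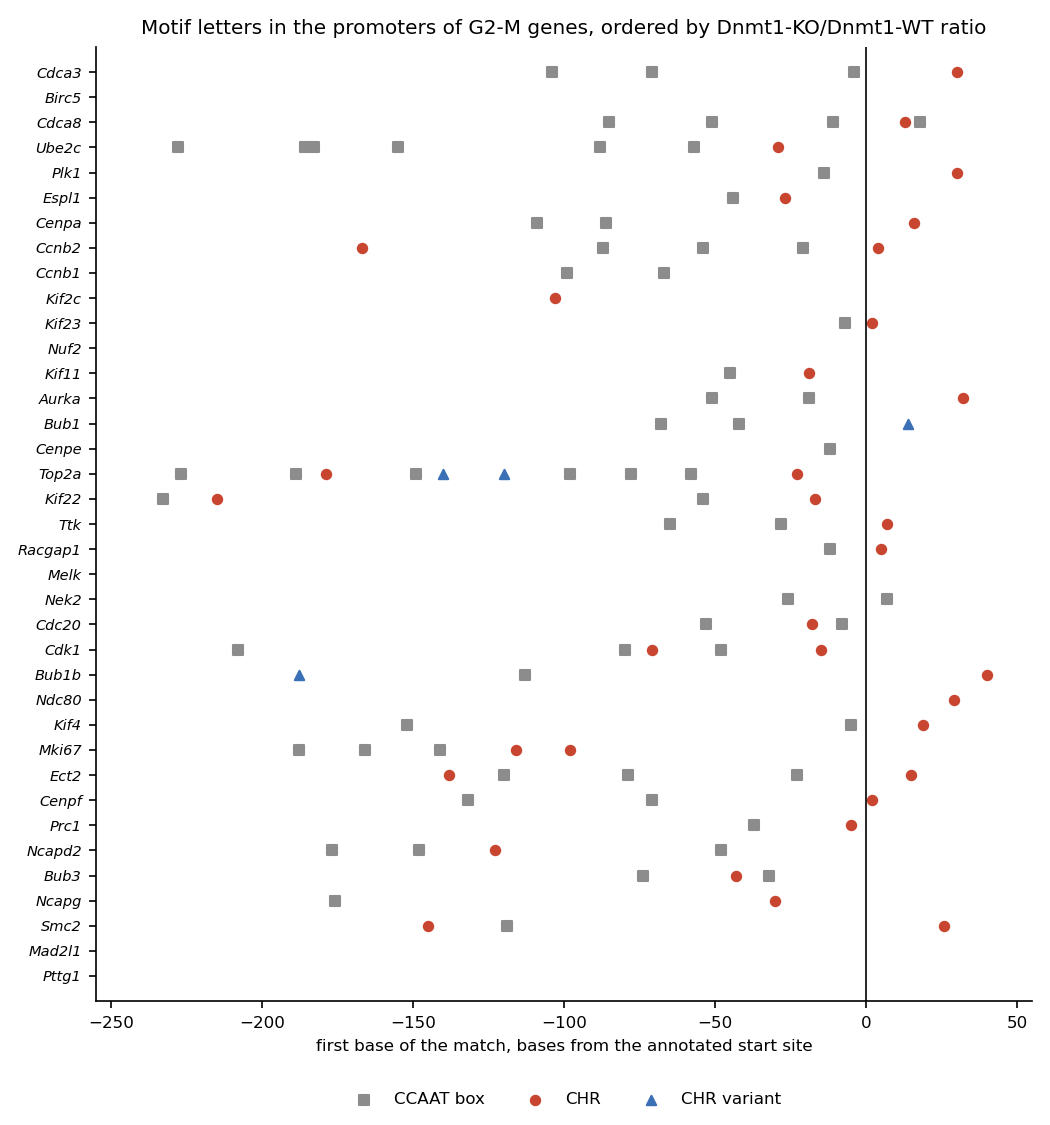
Positions of motif letters in the promoters of the 37 matched members, 1 promoter a gene, as bases from the annotated start site to the first base of the match. Red circles are TTTGAA, blue triangles TTCGAA and grey squares CCAAT, and genes run from the highest *Dnmt1*-KO over *Dnmt1*-WT ratio at the top to the lowest at the bottom. CHR letters gather around the start site and CCAAT letters upstream of it, and 42 of the 66 CCAAT matches begin in the last 100 bases before the start.

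Among the members, ratios with and without the CHR letters had similar medians and overlapping ranges. The 29 members with CHR letters had a median ratio of 1.82 and a range from 1.12 to 3.34. The 8 without them had a median of 1.83 and a range from 0.830 to 2.66, and the 8 without a promoter in the table had a median of 1.77. Matches are letters in a window, and binding was not measured.

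The members were low but detected in both libraries. In *Dnmt1*-WT they ranged from 0.73 FPKM for *Ttk* to 42.46 FPKM for *Bub3*, with a median of 3.97 FPKM, and in *Dnmt1*-KO from 1.33 to 53.53 FPKM with a median of 7.32 FPKM. All 45 were above 0 in both libraries, and 1 FPKM was reached by 42 of them in *Dnmt1*-WT and by 45 in *Dnmt1*-KO. A level of 10 FPKM was reached by 6 members in *Dnmt1*-WT and by 16 in *Dnmt1*-KO. Together the members summed to 271 FPKM in *Dnmt1*-WT and 442 FPKM in *Dnmt1*-KO, and *Bub3*, *Pttg1* and *Ube2c* made up 33.0% of the first sum and 27.0% of the second. Without these 3 genes the sums were 182 and 323 FPKM, a ratio of 1.78.

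Almost every member was higher in the *Dnmt1*-KO library. The *Dnmt1*-KO over *Dnmt1*-WT ratio was above 1 for 43 of the 45, where 50.3% of the 16102 genes above 0 in both libraries had such a ratio. A ratio of at least 1.5 was found for 36 members against 19.7% of genes, and a ratio of at least 2 for 13 members against 11.8% of genes. No member was at or below 1/1.5, a level reached by 12.7% of genes, or at or below 0.5, reached by 4.98%. Among the 11885 genes whose mean FPKM lay in the range of the members, from 1.03 to 48.0, the shares with a ratio above 1, of at least 1.5 and of at least 2 were 47.3%, 15.2% and 8.26%. On the log2 scale, after adding 0.1 to every FPKM value, the median ratio was 0.84 for the members and 0.02 for all genes above 0 in at least 1 library. Most members thus sat in a narrow band, with 23 of them between 1.5-fold and 2-fold. The order of the levels was much the same in both libraries (Spearman's rho 0.95 across the 45 members, which share both libraries), and the ratio did not follow the mean level (rho -0.04).

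**Figure D2:**
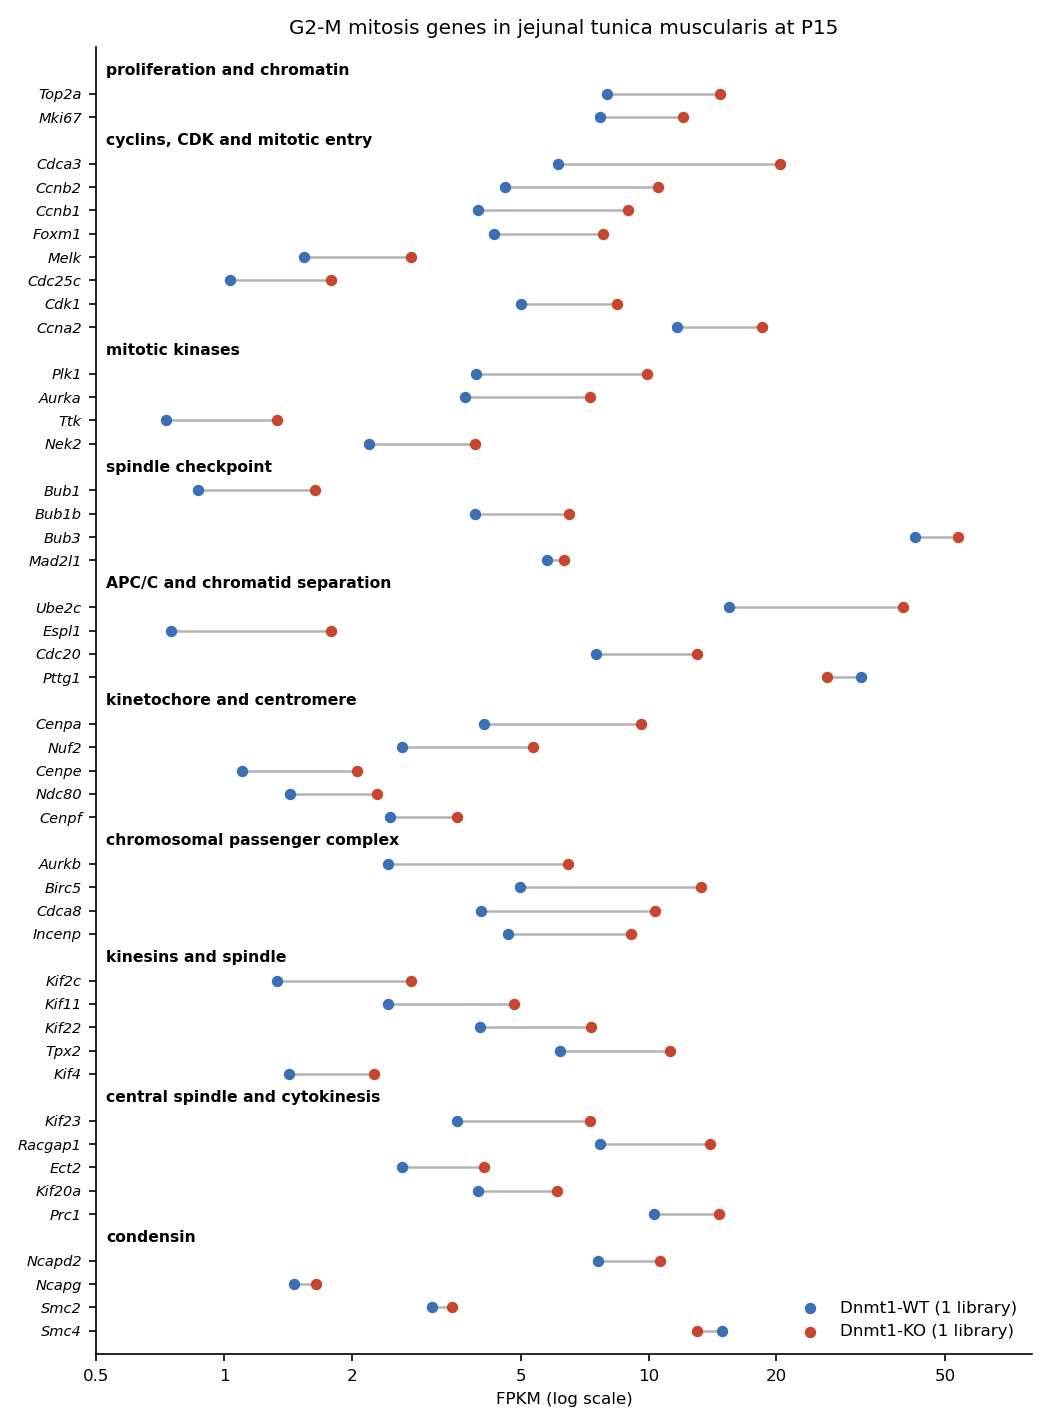
FPKM of each of the 45 members in the *Dnmt1*-WT library (blue) and the *Dnmt1*-KO library (red) on a log axis, grouped by role and ordered by ratio within a role. The red point lies to the right of the blue one for 43 genes, and to the left for *Pttg1* and *Smc4*.

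The genes that drive mitotic entry were all higher in the *Dnmt1*-KO library, and all 8 had ratios of at least 1.58. *Cdk1*, the kinase at the centre of mitotic entry, had 5.01 FPKM in *Dnmt1*-WT muscle and 8.41 FPKM in *Dnmt1*-KO muscle, a ratio of 1.68. Its B-type cyclins differed more, with *Ccnb1* at 3.97 and 8.94 FPKM (2.25) and *Ccnb2* at 4.6 and 10.51 FPKM (2.28). *Ccna2*, cyclin A, was the most abundant of the 3 cyclins in both libraries and went from 11.68 to 18.51 FPKM (1.58). Per length, the level of *Ccnb1* was thus 0.792 times that of *Cdk1* in *Dnmt1*-WT and 1.06 times in *Dnmt1*-KO, while *Ccna2* stood at 2.33 and 2.20 times *Cdk1*. *Ccnb1* is an uncertain value, because 42.1% of the 50-base words of its longest transcript also occur in 6 other annotated genes, chiefly *Ccnb1-ps*.

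*Cdca3*, a partner of the ligase that removes the CDK1 inhibitor WEE1, had the highest ratio of all members, 3.34, from 6.1 FPKM in *Dnmt1*-WT to 20.4 FPKM in *Dnmt1*-KO. *Cdc25c*, a phosphatase that activates CDK1, was low in both libraries, at 1.03 and 1.79 FPKM (1.74). *Wee1*, the kinase that opposes it, went the other way, from 10.82 to 8.27 FPKM (0.764). *Pkmyt1*, the other kinase that inhibits CDK1, was higher in *Dnmt1*-KO, at 2.46 and 4.34 FPKM (1.76), and *Fbxo5*, the APC/C inhibitor EMI1, went from 1.5 to 3.05 FPKM (2.03). The transcription factor *Foxm1*, which activates G2-M genes, was listed at 4.33 and 7.81 FPKM (1.80), and the kinase *Melk* at 1.54 and 2.76 FPKM (1.79). *Mki67*, the source of the Ki-67 antigen used to count cycling cells, had 7.69 and 12.03 FPKM (1.56). *Top2a*, which untangles sister DNA, had 7.99 and 14.69 FPKM (1.84).

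Among the 4 members grouped as mitotic kinases, a role that leaves out *Aurkb*, *Plk1* had the highest ratio, 2.52. *Plk1*, which acts from centrosome maturation to cytokinesis, had 3.93 FPKM in *Dnmt1*-WT and 9.9 FPKM in *Dnmt1*-KO. *Aurka*, the spindle pole kinase, was at 3.7 and 7.29 FPKM (1.97), and its activator *Tpx2* at 6.17 and 11.2 FPKM (1.82), so that their relative levels stayed close, at 1.67 and 1.54 *Tpx2* per *Aurka*. The centrosome kinase *Nek2* was listed at 2.19 and 3.9 FPKM (1.78). *Ttk*, the checkpoint kinase MPS1, was the lowest member in both libraries, at 0.73 and 1.33 FPKM (1.82).

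The chromosomal passenger complex, which corrects faulty spindle attachments, had the highest median ratio of the 10 roles, 2.62. Its kinase *Aurkb* was listed at 2.43 FPKM in *Dnmt1*-WT and 6.47 FPKM in *Dnmt1*-KO, a ratio of 2.66. *Birc5*, survivin, had the same ratio at a higher level, 4.99 and 13.28 FPKM. *Cdca8*, borealin, followed with 4.02 and 10.36 FPKM (2.58). The scaffold *Incenp* was at 4.67 and 9.08 FPKM (1.94). All 4 subunits were thus 1.94 to 2.66 times as high in the *Dnmt1*-KO library.

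At the kinetochore, *Cenpa*, the histone variant that marks centromeres, was listed at 4.09 and 9.6 FPKM (2.35). *Nuf2*, with 2.63 and 5.33 FPKM (2.03), and *Ndc80*, with 1.43 and 2.29 FPKM (1.60), encode the arm that grips microtubules. Their partners in the same complex, *Spc24* at 5.71 and 12.18 FPKM (2.13) and *Spc25* at 6.4 and 10.1 FPKM (1.58), had ratios close to these. The motor *Cenpe* was at 1.1 and 2.06 FPKM (1.87), and *Cenpf* at 2.46 and 3.53 FPKM (1.43).

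The spindle checkpoint genes were split. *Bub1*, a kinase at unattached kinetochores, was listed at 0.87 and 1.64 FPKM (1.89), and *Bub1b*, which encodes BUBR1, at 3.89 and 6.48 FPKM (1.67). *Mad2l1*, the MAD2 protein that holds back CDC20, was nearly level at 5.75 and 6.32 FPKM (1.10). *Bub3*, the most abundant member, had 42.46 and 53.53 FPKM (1.26), and its level was 48.8 times that of *Bub1* in *Dnmt1*-WT and 32.6 times in *Dnmt1*-KO.

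Of the 4 genes that open the way to anaphase, 3 were higher in the *Dnmt1*-KO library and 1 was lower. *Ube2c*, the ubiquitin-conjugating enzyme of the APC/C, was listed at 15.43 FPKM in *Dnmt1*-WT and 39.66 FPKM in *Dnmt1*-KO, a ratio of 2.57. Its annotated exons share 592 bases with those of *Tnnc2*, a fast skeletal muscle troponin gene on the opposite strand, which was listed at 0.51 and 13.46 FPKM. Since the labels do not say that strand was kept, reads from the 2 genes may not have been told apart there, and the part of *Tnnc2* in the *Ube2c* value was not tested. *Cdc20*, the mitotic activator of the APC/C, had 7.52 and 12.98 FPKM (1.73), whereas *Fzr1*, its activator after mitosis, had 15.55 and 19.46 FPKM (1.25).

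*Espl1*, separase, the protease that cuts cohesin, was listed at 0.75 and 1.79 FPKM (2.39). *Pttg1*, the securin that blocks it, was 1 of only 2 members lower in the *Dnmt1*-KO library, at 31.62 FPKM in *Dnmt1*-WT and 26.25 FPKM in *Dnmt1*-KO, and had the lowest ratio of all members, 0.830. Per length, securin transcripts were 42.2 times as abundant as those of separase in *Dnmt1*-WT and 14.7 times in *Dnmt1*-KO.

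The kinesins grouped with the spindle factor *Tpx2* lay, together with it, between 1.59-fold and 2.07-fold. The kinesins *Kif20a* and *Kif23* were grouped with cytokinesis and are given below. *Kif2c*, which takes microtubules apart at centromeres, was listed at 1.33 and 2.75 FPKM (2.07), and *Kif11*, the motor that pushes spindle poles apart, at 2.43 and 4.83 FPKM (1.99). The chromosome-bound motors *Kif22*, with 4.01 and 7.32 FPKM (1.83), and *Kif4*, with 1.42 and 2.26 FPKM (1.59), were close behind. *Kif4* shares 832 exon bases with *Pdzd11* on the opposite strand, which had 23.64 and 28.49 FPKM.

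For the central spindle and cytokinesis, *Kif23* and *Racgap1* form the centralspindlin complex and were listed at 3.53 and 7.26 FPKM (2.06) and at 7.69 and 13.94 FPKM (1.81). *Ect2*, the exchange factor they bring to the cleavage site, had 2.63 and 4.1 FPKM (1.56). *Kif20a* was at 3.97 and 6.08 FPKM (1.53) and shares 1271 exon bases with *Cdc23*, an APC/C subunit on the opposite strand with a ratio of 0.831. *Prc1*, which bundles midzone microtubules, had 10.32 and 14.65 FPKM (1.42).

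Condensin, the ring that compacts mitotic chromosomes, had the lowest median ratio of the 10 roles, 1.13, and none of its 4 members reached 1.5. *Smc4* was lower in the *Dnmt1*-KO library, at 14.86 FPKM in *Dnmt1*-WT and 13.03 FPKM in *Dnmt1*-KO (0.877), and its ring partner *Smc2* was at 3.08 and 3.45 FPKM (1.12). *Ncapg* had 1.46 and 1.65 FPKM (1.13) and *Ncapd2* 7.61 and 10.65 FPKM (1.40). The kleisin subunit of the same complex, *Ncaph*, had 3.36 and 7.37 FPKM (2.19). After centring on transcript GC content *Smc4* moved to a ratio of 1.10.

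A second list of 58 other mitotic genes gave a similar but weaker picture, with a median log2 ratio of 0.59. It had 54 ratios above 1, 32 of at least 1.5 and 14 of at least 2, where the shares of all genes were 50.3%, 19.7% and 11.8%. The highest ratio in this list was that of *Depdc1b*, 6.81, from 0.52 to 3.54 FPKM, and the lowest that of *Fam83d*, 0.333, from 47.26 to 15.76 FPKM. The median log2 ratio was -0.02 for the APC/C list and -0.45 for the cohesin list, both below that of the members. Of 15 genes for APC/C subunits and *Fzr1*, 7 were above 1, which is close to the 50.3% of all genes, and only *Anapc15* was at or above 1.5 (6.79 and 14.0 FPKM, 2.06), while *Anapc10* was the lowest (3.8 and 2.27 FPKM, 0.597). All 10 genes of cohesin and its loaders were lower in *Dnmt1*-KO, where 49.1% of all genes had a ratio below 1, with ratios from 0.563 for *Stag2* to 0.849 for *Smc1a*.

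Among the 12 genes of the MuvB and DREAM complexes, 2 were above 1, against 50.3% of all genes. One was *Mybl2*, the B-MYB factor that turns G2-M genes on, with 0.78 and 1.88 FPKM (2.41), and the lowest was *Tfdp2* (0.563). Of the 7 CDK inhibitors, 6 were above 1, 4 at or above 1.5 and 3 at or above 2, where the shares of all genes were 50.3%, 19.7% and 11.8%. These counts include *Cdkn2a*, which was near 0 in both libraries, at 0.05 and 0.09 FPKM (1.80). They also include *Cdkn2c* (1.07) and *Cdkn2d* (1.10), which were nearly level. *Cdkn1a*, the p53 target p21 that restrains cyclin-CDK complexes, was at 14.72 FPKM in *Dnmt1*-WT and 124.9 FPKM in *Dnmt1*-KO (8.49), *Cdkn2b* at 0.23 and 2.03 FPKM (8.83), *Cdkn1c* at 26.99 and 58.18 FPKM (2.16) and *Cdkn1b* at 45.95 and 29.37 FPKM (0.639). The *Dnmt1*-KO library thus held more of both the G2-M transcripts and of a cell cycle inhibitor, and whether the same cells carried them cannot be read from whole tissue.

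The 40 genes of DNA replication in S phase were also mostly higher, with 34 above 1 and 17 of at least 1.5, against 50.3% and 19.7% of all genes. A ratio of at least 2 was reached by 6 of 40, which is close to the 11.8% of all genes. The median log2 ratio of these replication genes was 0.39 against 0.84 for the G2-M genes. *Mcm10* was the highest of them (0.32 and 1.08 FPKM, 3.38) and *Pola1* the lowest (4.24 and 3.12 FPKM, 0.736). The 13 cyclins, kinases and factors of G1 had a median log2 ratio of 0.00, with 7 above 1 against 50.3% of all genes, from *E2f2* as the highest (0.62 and 1.8 FPKM, 2.90) to *Ccnd2* as the lowest (104.65 and 64.3 FPKM, 0.614). With 1 library per genotype the differences between these lists have no test.

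**Figure D3:**
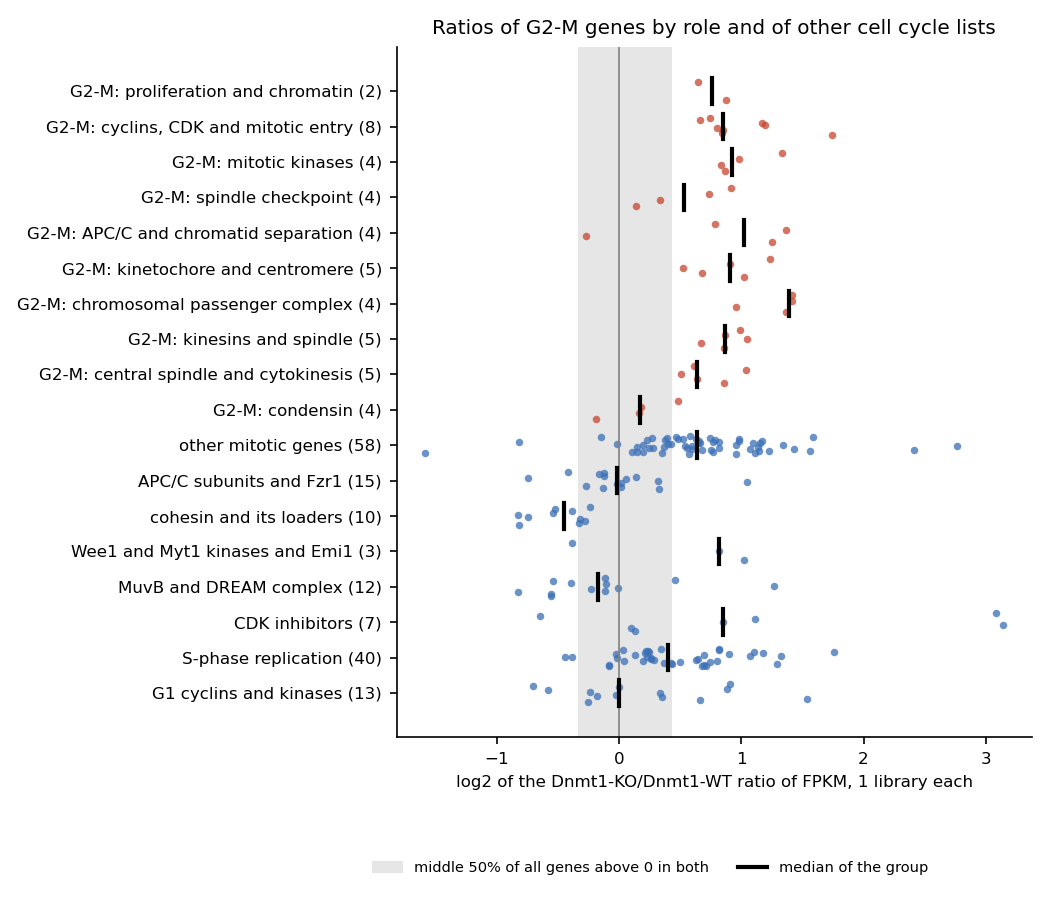
Log2 of the *Dnmt1*-KO over *Dnmt1*-WT ratio for each gene, by role for the G2-M members (red) and by list for other cell cycle genes (blue), with the number of genes in parentheses, a black bar at each median and a grey band over the middle 50% of all genes. The passenger complex stands highest among the roles and condensin lowest, and the 10 cohesin genes all lie left of 0.

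Markers of several cell types moved together with the G2-M genes, and in whole tissue fewer cells of a type and less RNA per cell cannot be told apart. SMC markers were abundant, as the tissue label requires, and all 12 were lower in *Dnmt1*-KO, with a summed level of 27646 FPKM in *Dnmt1*-WT and 18300.3 FPKM in *Dnmt1*-KO. All 8 leukocyte markers were higher, with sums of 27.4 and 92.7 FPKM, as were all 11 macrophage markers, with sums of 155 and 530.2 FPKM. All 8 endothelial markers were higher, with sums of 61.7 and 144 FPKM. Of the 8 epithelial markers, 7 were higher, with sums of 153 and 292 FPKM and *Krt19* as the most abundant (96.08 and 188.37 FPKM). Fibroblast markers were higher for 5 of 6, with sums of 3088 and 4844 FPKM that came mostly from the collagen genes *Col1a1*, *Col1a2* and *Col3a1*. The exception, *Pdgfra*, was lower, at 68.95 and 40.72 FPKM (0.591). Over all genes, 50.3% had a ratio above 1 and 49.1% a ratio below 1.

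For cell types known to divide, the marker lists differed. The crypt stem cell marker *Lgr5* was at 0.18 FPKM in both libraries and *Ascl2* at 0.19 and 0.03 FPKM, while *Olfm4* went from 1.02 to 4.55 FPKM and *Smoc2*, the most abundant gene of the list, from 174.7 to 101.67 FPKM. In all, 3 of the 8 crypt markers were higher and 4 lower, near the 50.3% and 49.1% of all genes, with sums of 240.4 and 152 FPKM. Most of both sums came from *Smoc2* and *Slc12a2* (48.22 and 29.38 FPKM). Whether their transcripts came from crypt cells in this tissue was not tested, so the sums do not give the amount of crypt cells. Of 7 T cell markers listed, 4 were at 0 in *Dnmt1*-WT (*Cd3d*, *Cd3e*, *Cd8a* and *Cd2*), and the summed level was 1.06 FPKM in *Dnmt1*-WT and 5.76 FPKM in *Dnmt1*-KO. Of the B and plasma cell list, *Pax5* was at 0 in both libraries, *Cd79a* had 0.55 and 1.08 FPKM, *Cd79b* had 0.52 and 1.5 FPKM, and *Mzb1* went the other way, from 0.34 FPKM to 0, with sums over the list of 1.41 and 2.77 FPKM. Of 7 mast cell markers listed, 5 were at 0 in *Dnmt1*-WT and all were above 0 in *Dnmt1*-KO, with *Tpsb2* at 2.08 FPKM and *Cma1* at 1.55 FPKM there, and *Cpa3* had 0.06 and 1.15 FPKM. *Kit*, the most abundant gene of the mast cell list and also a marker of interstitial cells of Cajal, had 38.95 and 38.1 FPKM, and the list summed to 39.0 and 43.1 FPKM. Erythroid markers above 0 in both libraries were higher for all 5, with sums over the list of 126 and 562 FPKM. Interstitial cells of Cajal gave 0 of 4 markers above 1, mesothelium 4 of 6 and enteric glia 4 of 5, against 50.3% of all genes. The part of any of these cells in the values of the G2-M genes was not tested.

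**Figure D4:**
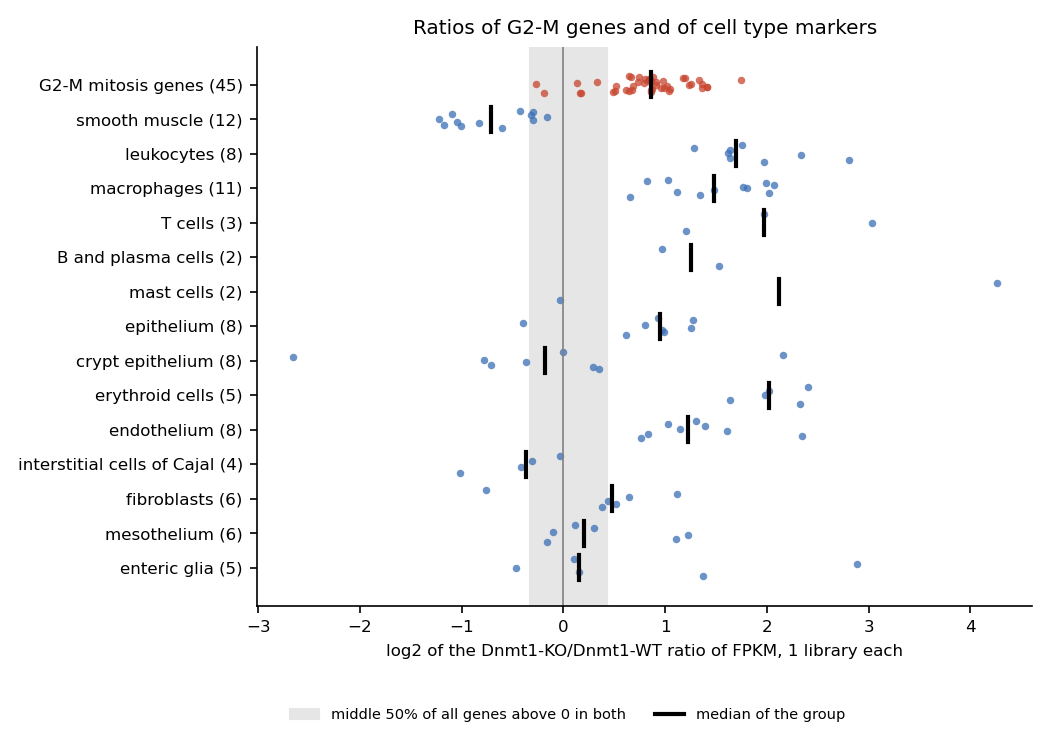
Log2 of the *Dnmt1*-KO over *Dnmt1*-WT ratio for the 45 G2-M genes (red) and for marker genes of each cell type (blue) that were above 0 in both libraries, with their number in parentheses, medians as black bars and the middle 50% of all genes as a grey band. The medians of the leukocyte, macrophage, endothelial, epithelial and erythroid markers lie to the right of that of the G2-M genes, though single markers such as *Cx3cr1* and *Esam* do not, and all 12 SMC markers lie left of 0. The T cell, B cell and mast cell lists have only 2 or 3 genes above 0 in both libraries, and of the 2 mast cell genes *Kit* lies left of 0.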

How the data were processed

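Total RNA of jejunal tunica muscularis was isolated with the mirVana kit and sequenced from TruSeq RNA libraries, 1 for each genotype, with GRCm38/mm10 as reference. The submitters' processing notes name TopHat 1.4.1 and Cufflinks 2.0.2. The deposited table gives FPKM, which the authors computed per gene, and other values, namely transcript variant numbers per library and the authors' own ratios, of which the ratios were not used. The study lists fewer mapped reads for *Dnmt1*-KO than for *Dnmt1*-WT, and since the reads of a gene are unknown, no interval is given.

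Samples were assigned by their genotype labels. The members and all gene lists were chosen with earlier results of these data known. Plain ratios of FPKM were taken without rescaling over genes above 0 in both libraries, with 2 and 0.5, and 1.5 and 1/1.5, as fold limits, and medians used log2 of FPKM + 0.1. No test was possible with 1 library per genotype. Named genes were all members, the extremes of each cell cycle list among genes reaching 1 FPKM, and the extremes or most abundant genes of marker lists. Defining markers named for their level, *Spc24*, *Spc25*, *Ncaph*, *Fzr1*, *Pkmyt1*, *Cdkn1a*, *Cdkn1c*, the overlapping genes and the pairs compared by level were chosen after their values were seen. So were *Cdkn2a*, *Cdkn2c*, *Cdkn2d* and *Slc12a2*.

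GENCODE release M21 (GRCm38) gave exon overlaps, shared 50-base words, and the GC content and length of transcripts, and had 17204 of the 18159 symbols (94.7%) and all 45 members. Motif letters were searched on both strands of 300-base RefSeq promoters, of GRCm38.p6, and TTTGAA and TTCGAA were counted for a gene if any of its promoters held them. Alternatives were 4 scalings, pseudocounts of 0, 0.01, 0.1 and 1, 2 filters on low values, and centring on GC content and on length in 10 bins. Fold counting was tested on simulated data. Python 3.11.15, numpy 2.4.6, pandas 2.3.3, scipy 1.17.1 and matplotlib 3.10.9 were used.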

Additional observations from a re-analysis of the deposited data

How the results depend on the processing

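The number of members with a ratio above 1 was 43 under 9 of the 11 alternatives, 44 after centring on transcript GC content, and 40 when 1 FPKM was required in both libraries, a filter that left fewer members. Counts at a ratio of at least 1.5 ran from 26 to 38. At a ratio of at least 2, they ran from 9 with a pseudocount of 1, which lowers the ratios of weakly expressed genes, to 18 after GC centring, against 13 without either. The median log2 ratio of 0.84 became 0.87 with median centring, 0.86 with the trimmed mean and 0.87 with the upper quartile. It was 0.74 after division by the FPKM sum, which shifts all genes by 0.10. Centring on GC content gave 0.94 and on length 0.88, pseudocounts of 0, 0.01 and 1 gave 0.86, 0.86 and 0.65, and 1 FPKM in both libraries gave 0.82. Of 492 member values under these alternatives, 1 changed sides, that of *Smc4*, and no member past 2-fold did so. A pseudocount or a filter on low values cannot move a ratio across 1. Only the scalings and the centring on GC content and on length could thus change a side. No paired analysis was possible because each genotype has 1 library, and for the same reason no library could be left out. The reads behind each gene are unknown, so the counting error of single members cannot be given.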

Other observations

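The table also gives the number of transcript variants found per gene and library, without naming them. For the G2-M genes this number was the same in both libraries for 30 of 45, higher in *Dnmt1*-KO for 8 and lower for 7. Across the 16102 genes above 0 in both libraries, 73.9% had the same number, 12.5% more and 13.6% fewer. *Cdc25c* went from 1 variant in *Dnmt1*-WT to 3 in *Dnmt1*-KO and *Cdk1* from 1 to 2, while *Aurka*, *Ttk* and *Kif20a* went from 2 to 1. No member had more than 5 variants, and 19 had 1 in both libraries.

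Sequence shared with other genes limits a few more members. *Ccna2* shares 510 exon bases with *Exosc9* on the opposite strand, which was listed at 10.95 and 11.37 FPKM, *Ncapg* shares 944 with *Lcorl* and *Prc1* 911 with *Rccd1*. *Cdc25c* shares 623 with *Gm3550*, and 10.9% of the 50-base words of *Plk1* occur in other genes, chiefly *Plk-ps1*. *Cdc20* shares 53 with *Elovl1*, listed at 21.51 and 40.55 FPKM, and 11.3% of its 50-base words occur in *Gm7856*. The part of these genes in the member values was not tested.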
